A study of Mus musculus with 12 samples.

Results

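The phagocyte NADPH oxidase is the enzyme with which macrophages and neutrophils make superoxide, and 4 of its structural subunit genes were followed here, Cybb, Cyba, Ncf1 and Ncf4, chosen by name from the 55401 genes listed in each of 2 tables of RNA-seq counts. The data came from tumour-associated macrophages (TAMs) sorted from subcutaneous B16-F10 tumours, a mouse melanoma line, with 12 samples in all and 3 in each of 4 groups. The first table compared mice by their labelled genotype, AMPKfl/fl (WT) with AMPKfl/flLyz2cre/cre (AMPK-KO). In AMPKfl/fl mice the AMPK allele is flanked by loxP sites and stays intact where there is no Cre. In AMPKfl/flLyz2cre/cre mice Cre driven from the Lyz2 locus removes AMPK in myeloid cells, so neutrophils and monocytes are targeted as well as macrophages. The second table compared early-stage tumours, taken 8 days after implantation, with late-stage tumours, taken after 15 days, both from mice whose genotype was labelled WT and that carried no named transgene. No treatment was given to any group. Per the study's methods the mice were C57BL/6 females of 5 weeks, and the gate kept F4/80+ CD11b+ leukocytes (CD45+) that lacked Ly6C and Ly6G. The labels did not say whether a sample was 1 mouse or a pool, nor on which day the AMPK-KO and WT tumours were taken, which the methods give as 15 days after implantation, and they wrote the Cre locus of AMPK-KO replicates 2 and 3 as Lyz3 and Lyz4. No source says that replicates were separate animals, and p-values then measure only the spread between these samples.

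In a resting phagocyte the oxidase is held apart. Its membrane core, cytochrome b558, is a heterodimer of gp91phox (Cybb, also called NOX2), which carries the haem and flavin through which electrons pass from NADPH to oxygen, and p22phox (Cyba), without which gp91phox does not mature. The regulatory subunits, p47phox (Ncf1) and p40phox (Ncf4) among them, wait in the cytosol until kinases phosphorylate p47phox, whereupon they move to the membrane together with a GTP-bound Rac protein and switch the core on. Loss of a subunit gene causes chronic granulomatous disease, in which phagocytes engulf microbes but kill them poorly.

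Promoter sequences (RefSeq, build GRCm38.p6) were at hand for 3 of the 4 genes and not for Ncf4. They are shown because Cybb and Ncf1 are textbook targets of the myeloid ETS factor PU.1 and of interferon-activated factors, and because such factors are among the genes described below. Each runs from 250 bases before the transcription start annotated in RefSeq to 30 bases after it, on the coding strand. Capitals mark matches on either strand to the PU box (GAGGAA), the ETS-IRF composite (GGAA, any 2 bases, GAAA), the IRF repeat (GAAA, any 2 bases, GAAA) and the GAS element (TTC, any 3 bases, GAA).
Cybb, chrX:9469295-9469574, minus strand: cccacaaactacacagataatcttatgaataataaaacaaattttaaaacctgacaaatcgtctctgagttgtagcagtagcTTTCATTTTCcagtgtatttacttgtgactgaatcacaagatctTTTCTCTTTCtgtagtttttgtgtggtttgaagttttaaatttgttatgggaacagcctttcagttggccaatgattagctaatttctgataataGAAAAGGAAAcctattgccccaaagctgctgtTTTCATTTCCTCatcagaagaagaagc
Cyba, chr8:122432911-122433190, minus strand: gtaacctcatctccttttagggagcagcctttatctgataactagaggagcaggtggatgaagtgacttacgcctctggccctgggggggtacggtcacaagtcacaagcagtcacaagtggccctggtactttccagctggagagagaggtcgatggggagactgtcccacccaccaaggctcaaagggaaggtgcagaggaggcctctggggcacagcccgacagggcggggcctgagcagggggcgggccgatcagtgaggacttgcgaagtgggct
Ncf1, chr5:134229596-134229875, minus strand: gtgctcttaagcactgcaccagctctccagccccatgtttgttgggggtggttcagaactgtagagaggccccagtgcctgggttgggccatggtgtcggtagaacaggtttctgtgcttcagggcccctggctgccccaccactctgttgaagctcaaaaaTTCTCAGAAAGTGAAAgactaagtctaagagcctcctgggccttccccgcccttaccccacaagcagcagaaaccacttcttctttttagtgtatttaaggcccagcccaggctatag

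The Cybb window held 3 IRF repeats, whose first bases lay at -168, -124 and -29 from the start, and a composite element and a PU box that overlapped each other at 4 and 10 bases after the start, on the opposite strand. It also held a CCAAT box at -56. The Ncf1 window held 1 IRF repeat at -82 that overlapped a GAS element at -88, and an SP1 box (GGGCGG, opposite strand) at -42. The Cyba window held none of the 4 capitalised motifs but 2 SP1 boxes, at -24 and -6. Among 32851 promoter windows of the same length, an IRF repeat was found in 3.28%, the composite in 2.55%, the GAS element in 7.83%, the PU box in 26.0%, an SP1 box in 34.7% and a CCAAT box in 36.1%. These matches are descriptions of letters, and factor binding was not measured here.

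In the files' annotation (GRCm38, GENCODE M21) Cybb (ENSMUSG00000015340.10) lies on chromosome X from 9435252 to 9487771, Cyba (ENSMUSG00000006519.11) on chromosome 8 from 122424776 to 122432930, and Ncf1 (ENSMUSG00000015950.13) on chromosome 5 from 134220053 to 134229625, all on the minus strand. Ncf4 (ENSMUSG00000071715.12) lies on chromosome 15 from 78244801 to 78262580 on the plus strand. Cybb and Ncf4 overlapped no other annotated gene. An exon of Cyba overlapped Gm20388 on the opposite strand, which had 0 counts in every library, and Ncf1 overlapped Gtf2ird2 on the opposite strand, which had 373 to 865 counts against 16187 to 25297 for Ncf1. Whether counting used strand is not given in the sources used here, so reads from Ncf1 and Gtf2ird2 may not be told apart.

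The libraries held 71019494 to 84470374 counts, and the subunits were read deeply in every one, from 6275 counts of Ncf4 to 69104 counts of Cybb. Prkaa1, which encodes the AMPKα1 subunit, was read because of the deletion. It fell from 65.0 ± 3.34 CPM (counts scaled to the size of each library, mean ± SD, n = 3) in WT to 42.9 ± 3.53 CPM in AMPK-KO TAMs (log2 fold change -0.60, edgeR adjusted p = 0.000226), to 0.660 of its WT level. Counts are summed over the whole gene, including any exons that Cre leaves in place. The value therefore cannot show how complete the deletion was. Some values went against the labels. Lyz2, whose coding sequence the Cre knock-in interrupts, was as low in WT (10.7 ± 2.46 CPM) as in AMPK-KO TAMs (11.2 ± 2.16 CPM), against 2789 ± 278 CPM in early-stage and 1107 ± 19.1 CPM in late-stage TAMs. Lyz2 thus did not tell the WT from the AMPK-KO genotype. Whether the WT mice also carried Cre was not tested, so the control of the AMPK comparison rests on its label. Although the methods name females, the Y-linked gene Ddx3y was at 46.9 ± 1.49 CPM in WT and 56.9 ± 4.25 CPM in AMPK-KO TAMs, with Xist at 1.56 ± 0.685 and 0.0539 ± 0.0503 CPM. In the second table Ddx3y was at 18.4 ± 2.32 CPM beside Xist at 223 ± 60.9 CPM in early-stage TAMs and at 0.0166 ± 0.0288 CPM beside Xist at 365 ± 114 CPM in late-stage TAMs. Sex-linked expression thus moved with tumour stage, so sex and stage cannot be told apart for any gene in that comparison, the X-linked Cybb among them.

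Levels were compared between genes as CPM per kilobase of merged exons, with merged exons of 5808 bases for Cybb, 1039 for Cyba, 3663 for Ncf1 and 2020 for Ncf4. On this scale Cyba was the most abundant subunit transcript, at 629 ± 89.0 in WT, 700.2 ± 48.0 in AMPK-KO, 583 ± 133 in early-stage and 601 ± 16.3 in late-stage TAMs. Cybb followed at 87.2 ± 4.61, 142.9 ± 11.99, 119.7 ± 18.8 and 123.3 ± 2.26 CPM per kilobase in the same groups. Ncf1 came next at 77.1 ± 1.69, 85.6 ± 0.176, 64.4 ± 3.84 and 56.7 ± 1.80, and Ncf4 was lowest at 60.7 ± 3.69, 72.5 ± 1.10, 44.3 ± 5.96 and 45.1 ± 2.25 CPM per kilobase. The order was the same in all 4 groups, and within each group the 3 libraries of every subunit lay apart from those of its neighbours in that order. Merged exons join all annotated transcripts of a gene and can exceed the length of the transcript expressed, which was not measured. The order between genes depends on these lengths, and since the same lengths divide every library, agreement between libraries and groups does not test them. The tables were scaled separately, so a difference in level between them has no test here.

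In AMPK-KO TAMs the transcript of the catalytic subunit rose most. Cybb was at 533, 480 and 507 CPM in WT replicates 1 to 3 and at 878, 861 and 749.9 CPM in AMPK-KO replicates 1 to 3. Every AMPK-KO library lay above every WT library, and the gap between the groups was wider than the range within either. The means were 507 ± 26.8 and 829.7 ± 69.6 CPM, a 1.64-fold rise (log2 fold change 0.71, SE 0.06, edgeR adjusted p = 3.24e-05), and Cybb ranked 306 by p among 17532 genes tested. Cybb kept this call under every other scaling, filter and tool run and without any 1 library, with log2 fold changes from 0.63 to 0.78.

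**Figure D1:**
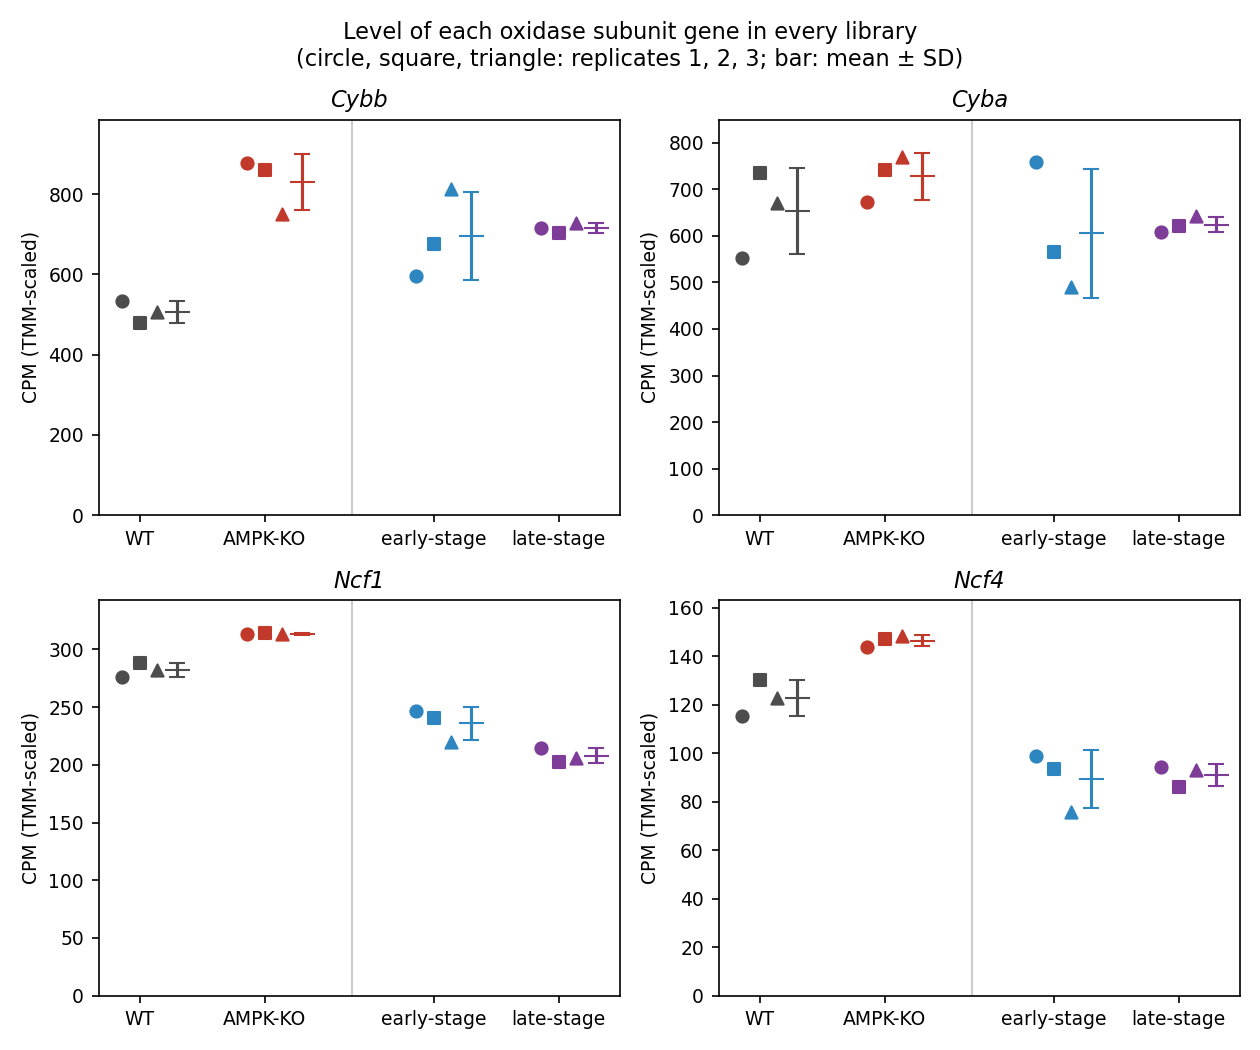
TMM-scaled CPM (vertical axes, from 0) of Cybb, Cyba, Ncf1 and Ncf4 in each library of the 4 groups, with the mean ± SD beside the points. The 3 AMPK-KO libraries lay above the 3 WT libraries for Cybb, Ncf1 and Ncf4 but not for Cyba, while early-stage replicates 1 and 3 lay at opposite ends for Cybb (596 and 813 CPM) and Cyba (759 and 491 CPM).

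The partner of Cybb in the membrane did not pass the test. Cyba was at 553, 735 and 671 CPM in WT and at 672, 742 and 769 CPM in AMPK-KO TAMs. The groups overlapped, since WT replicate 2 lay above AMPK-KO replicate 1. The means were 653 ± 92.5 and 728 ± 49.9 CPM (log2 fold change 0.16, SE 0.09, edgeR adjusted p = 0.275). The log2 fold change was 0.05 without WT replicate 1 and 0.25 without WT replicate 2.

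The cytosolic subunits rose less than Cybb did. Ncf4, whose product p40phox binds phosphatidylinositol 3-phosphate on phagosomes, was at 115, 130.1 and 123 CPM in WT and at 144, 147 and 148 CPM in AMPK-KO TAMs. All AMPK-KO libraries were higher, and the log2 fold change was 0.26 (SE 0.06, edgeR adjusted p = 0.00825). Ncf1, whose product p47phox organises the complex, was at 276, 288 and 282 CPM in WT and at 313, 314 and 313 CPM in AMPK-KO TAMs. It too did not overlap between the groups, and its log2 fold change was 0.15 (SE 0.04, edgeR adjusted p = 0.0283), but this small rise lost its call when any of WT replicates 1 and 3 or AMPK-KO replicates 1, 2 and 3 was left out (adjusted p from 0.0520 to 0.111) or when no filter on low counts was used (0.0507).

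In all, 3 of the 4 subunit genes rose in AMPK-KO TAMs and 0 fell, against a background in which 21.1% of the genes tested passed, 11.3% higher and 9.78% lower. The same 3 did not overlap between the groups, as was so for 37.2% of all genes, in 18.8% higher and in 18.4% lower. The median log2 fold change of the 4 was 0.21 beside 0.00 for all genes, and 0 of the 4 passed an absolute log2 fold change of 1, which 3.34% of genes did.

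Between the day 8 and day 15 tumours 0 of the 4 subunit genes passed the test, in a comparison where 9.18% of the genes tested did, 4.31% higher and 4.88% lower, and where 1.87% also had an absolute log2 fold change above 1. With DESeq2 and adjustment the count was again 0, and by edgeR's p before adjustment (0.0289) it was 1, Ncf1. Cybb was at 596, 677 and 813 CPM in early-stage and at 717, 703 and 729 CPM in late-stage TAMs. The late-stage libraries lay within the range of the early-stage ones, with means of 716 ± 13.1 and 695 ± 109 CPM (log2 fold change 0.04, SE 0.10, edgeR adjusted p = 0.845). Cyba was at 759, 566 and 491 CPM in early-stage and at 609, 622 and 642 CPM in late-stage TAMs, again with the late-stage values inside the early-stage range (0.04, SE 0.14, adjusted p = 0.882). Cybb and Cyba ran in opposite order over the early-stage replicates: replicate 3 had the most Cybb and the least Cyba, and replicate 1 the reverse. Ncf4 was at 98.8, 93.6 and 75.8 CPM in early-stage and at 94.3, 85.9 and 93.2 CPM in late-stage TAMs, with overlapping groups (0.03, SE 0.10, adjusted p = 0.902).

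Ncf1 was the subunit whose stage groups did not overlap. It was at 247, 241 and 220.2 CPM in early-stage and at 215, 202 and 206 CPM in late-stage TAMs. All late-stage libraries were lower, as in 15.6% of all genes (31.2% did not overlap in either direction), but Ncf1 did not pass the test (log2 fold change -0.18, SE 0.07, edgeR adjusted p = 0.147). Without early-stage replicate 3 it was -0.23 with an adjusted p of 0.0444. The median log2 fold change of the 4 subunits was 0.04 beside 0.00 for all genes.

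**Figure D2:**
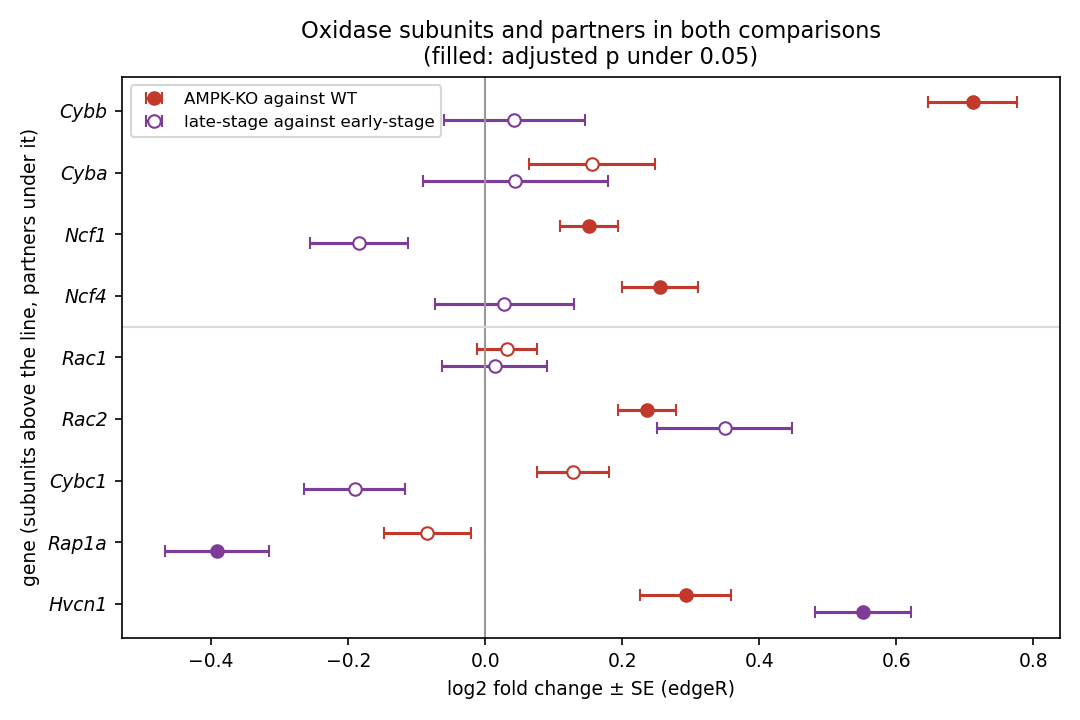
log2 fold change ± SE (horizontal axis, edgeR) of the 4 subunits and of 5 partner genes in AMPK-KO against WT (red) and late-stage against early-stage TAMs (purple), filled where the adjusted p was under 0.05. Cybb stands out at 0.71 in the AMPK comparison, and Hvcn1 is the gene filled in both.

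The genes of 5 products that join or assist the complex were read alongside. Rac2, the Rac GTPase of haematopoietic cells, rose from 374 ± 4.35 CPM in WT to 440.4 ± 11.7 CPM in AMPK-KO TAMs (log2 fold change 0.24, SE 0.04, edgeR adjusted p = 0.00278). The widely expressed Rac1 stayed within its spread (0.03, SE 0.04, adjusted p = 0.678). Hvcn1, the proton channel that balances the charge moved by the oxidase, rose from 57.5 ± 4.42 to 70.5 ± 1.75 CPM (0.29, SE 0.07, adjusted p = 0.0104). Cybc1, the endoplasmic reticulum chaperone of cytochrome b558, did not pass (0.13, SE 0.05, adjusted p = 0.116), nor did Rap1a, a small GTPase found with the cytochrome (-0.08, SE 0.06, adjusted p = 0.405). Thus 2 of 5 partners rose and 0 fell, with a median of 0.13, beside 11.3% and 9.78% of all genes tested and a median of 0.00.

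Hvcn1 was also higher in late-stage than early-stage TAMs, at 107, 115 and 113 CPM against 75.6, 74.4 and 78.6 CPM. The groups lay far apart beside their spread (0.55, SE 0.07, edgeR adjusted p = 0.00124). Rap1a fell from 185, 194 and 216 CPM to 153, 148 and 153 CPM (-0.39, SE 0.08, adjusted p = 0.0120), a call lost without early-stage replicate 2 or any 1 of the late-stage replicates (adjusted p from 0.0533 to 0.0833). Rac2 was at 394, 339 and 299 CPM in early-stage and at 418, 447 and 450.3 CPM in late-stage TAMs. These groups did not overlap (0.35, SE 0.10, adjusted p = 0.0565), and Rac2 passed the test with DESeq2 (0.00839), with at least 10 counts required in every library (0.0390) and without early-stage replicate 1 (0.00498). Rac1 (0.01, adjusted p = 0.938) and Cybc1 (-0.19, 0.145) did not pass, so that 1 of 5 rose and 1 fell, beside 4.31% and 4.88% of all genes. Exons of Rac1, Cybc1 and Hvcn1 overlap the span of a gene on the opposite strand (Daglb, Hexdc and Tctn1 in turn), and Daglb itself was higher in both comparisons (0.32, edgeR adjusted p = 0.000678, and 0.53, adjusted p = 0.00186).

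The other members of the NADPH oxidase family were near the limit of detection. The 9 genes of the other NOX and DUOX enzymes and their partners summed to between 0.476 and 1.34 CPM in each library, and 2 of them in the first table and 3 in the second were abundant enough to test. Nox3 and Duox2 had 0 counts in all 12 libraries, where a count of 0 allows up to 3 counts per library. Nox4, the constitutively active family member of kidney and fibroblasts, was at 0.357 ± 0.126 CPM in WT and 0.143 ± 0.0669 CPM in AMPK-KO TAMs (log2 fold change -1.32, SE 0.64, edgeR adjusted p = 0.186), and at 0.704 ± 0.466 and 0.278 ± 0.148 CPM in early-stage and late-stage TAMs (-1.34, SE 0.69, adjusted p = 0.270). Of the NOX and DUOX enzymes, Cybb was the one with a group mean above 1 CPM.

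The 2 chains of the cytochrome were then compared within each library, since a ratio of counts from 1 library does not depend on scaling. The Cybb to Cyba ratio of counts was 0.965, 0.653 and 0.755 in WT and 1.31, 1.16 and 0.975 in AMPK-KO TAMs. All 3 AMPK-KO ratios were higher, although AMPK-KO replicate 3 and WT replicate 1 nearly met. The mean log2 ratio rose by 0.55, with a two-sided exact permutation p of 0.1, the smallest that 3 against 3 libraries can give. In the second table the ratio was 0.785, 1.20 and 1.66 in early-stage and 1.18, 1.13 and 1.14 in late-stage TAMs. The late-stage ratios fell within the early-stage range (difference -0.01 on the log2 scale, exact permutation p = 0.9).

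Relative to Cyba, Ncf1 and Ncf4 showed no such shift with AMPK. The log2 Ncf1 to Cyba ratio differed by -0.01 (exact permutation p = 1) and the Ncf4 to Cyba ratio by 0.09 (p = 0.3) in AMPK-KO against WT TAMs. In late-stage against early-stage TAMs they differed by -0.25 (p = 0.2) and -0.03 (p = 0.8), each by two-sided exact permutation. After Benjamini-Hochberg adjustment over the 6 ratio tests every p was 0.6 or above.

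**Figure D3:**
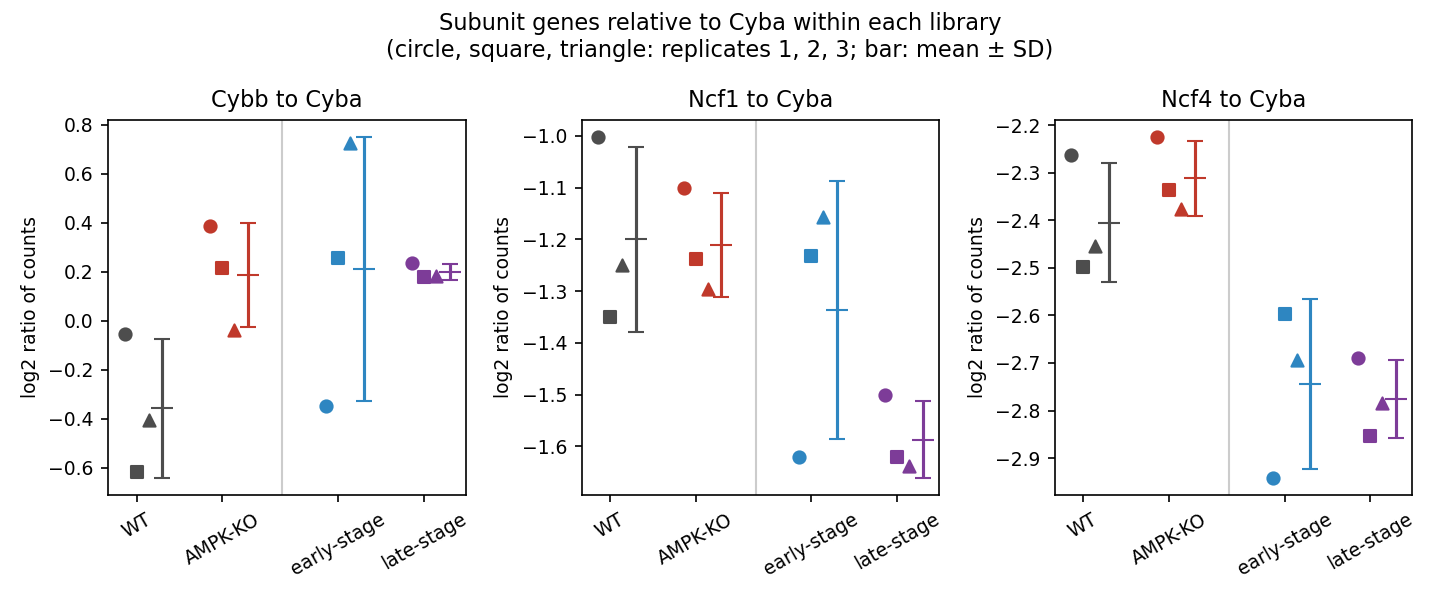
log2 ratio of counts (vertical axes, each with its own range) of Cybb, Ncf1 and Ncf4 to Cyba within each library of the 4 groups, with the mean ± SD beside the points. Only in the first panel do the AMPK-KO libraries all lie above the WT libraries, and the early-stage libraries are the most spread in all 3 panels.

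The Cybb to Cyba ratio moved with transcript length between replicates. For each library the median centred log2 CPM of genes with over 5000 bases of merged exons minus that of genes with under 1500 bases was taken as a length index, a measure chosen after the data were seen. It was 0.08, -0.20 and -0.10 in WT, 0.16, 0.07 and -0.09 in AMPK-KO, -0.11, -0.05 and 0.11 in early-stage and 0.02, -0.05 and -0.00 in late-stage TAMs. Within each of the 4 groups the index put the replicates in the same order as the Cybb to Cyba ratio did. Length also went with the difference between the AMPK groups. In AMPK-KO against WT TAMs the median log2 fold change was -0.08 for the genes under 1500 bases and 0.04 for those over 5000 bases. With stage these medians were -0.02 and -0.005. Cybb, with 5808 bases of merged exons, is among the long genes and Cyba, with 1039, among the short ones. The part of the index in the ratio was not tested. With the index as a covariate in the edgeR model, also added after the data were seen, the log2 fold changes in AMPK-KO TAMs were 0.63 for Cybb (adjusted p = 1.14e-07), 0.30 for Cyba (0.000276), 0.17 for Ncf1 (0.00332) and 0.30 for Ncf4 (0.000243). In that model all 4 subunits passed the test, Cyba included, and Cybc1 (0.15, 0.0371) also passed. In late-stage against early-stage TAMs it left the count at 0 of 4, while among the partners Cybc1 passed as lower (-0.19, adjusted p = 0.0411) and Rac2 as higher (0.37, 0.00165). The index comes from the same counts as the test.

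The profiles of the subunits over the 12 libraries were also compared. Likeness was taken as the root mean square difference of log2 CPM, centred within each table. Cyba, Ncf1 and Ncf4 lay 0.10 to 0.16 from one another, whereas Cybb lay 0.25 from Ncf4, 0.26 from Ncf1 and 0.33 from Cyba. Such a distance also grows with a gene's own change, which among the subunits was largest for Cybb in AMPK-KO TAMs. Cybb lay nearer to Ncf4 and Ncf1, but not to Cyba, than its median of 0.31 over the genes compared. Cyba to Ncf1 (0.16) was about the median for Ncf1 (0.17). Among 8951 other genes with at least 10 CPM on average in both tables, those nearest to Cybb were Fam49a (0.05), Ptprc (0.07) and Skil (0.07), against a median of 0.31 over all of them. Ptprc encodes the pan-leukocyte antigen CD45, one of the markers of the sort. Nearest to Cyba were Arf5 (0.05), Borcs6 (0.05) and Rnaset2a (0.06), with a median of 0.22. Nearest to Ncf1 were Mcl1 (0.03), Nrbp1 (0.04) and Irf9 (0.04), with a median of 0.17, and nearest to Ncf4 were Tor1a (0.05), Cd300c2 (0.05) and Armc7 (0.06), with a median of 0.19.

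Genes that act upstream of the complex were followed in lists. Of 15 genes for transcription factors and a coactivator known to act on the oxidase genes, 14 were tested and 7 rose in AMPK-KO TAMs while 0 fell (median log2 fold change 0.19), where 11.3% of all genes tested rose and 9.78% fell. Irf1, which binds interferon response elements, rose from 142, 145 and 144 CPM to 310.1, 288 and 298 CPM (1.06, SE 0.05, edgeR adjusted p = 3.30e-07). Nfkb1 rose from 198 ± 1.36 to 262 ± 1.81 CPM (0.40, SE 0.04, adjusted p = 8.22e-05), and Irf8, a myeloid factor that binds DNA with PU.1, from 299 ± 5.95 to 395 ± 7.87 CPM (0.40, SE 0.04, adjusted p = 9.54e-05). Spi1, which encodes PU.1, did not pass (0.11, SE 0.05, adjusted p = 0.186). With tumour stage 2 of the 14 rose and 1 fell (median 0.02), where 4.31% of all genes rose and 4.88% fell: Runx1 (0.28, adjusted p = 0.0270) and Nfkb1 (0.26, 0.0473) were higher and Cebpe, at 1.91 ± 0.292 CPM in early-stage and 0.677 ± 0.279 CPM in late-stage TAMs, was lower (-1.49, 0.0270). The Runx1 call was lost without early-stage replicate 2 or any 1 late-stage replicate (adjusted p from 0.1004 to 0.140), the Nfkb1 call also without early-stage replicate 3 (0.0569 to 0.193), with upper-quartile scaling (0.0599) or with no filter on low counts (0.0821), and the Cebpe call without early-stage replicate 2 or 3 or late-stage replicate 2 or 3 (0.0576 to 0.107) or with no filter (0.0668).

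Among 26 kinases, PI3-kinase subunits and regulators of Rac that prime or switch on the cytosolic subunits, 11 rose and 2 fell in AMPK-KO TAMs (median 0.16), beside 11.3% and 9.78% of all genes. Prex1, a Rac exchange factor, rose from 347, 309 and 311 CPM to 474, 472 and 439.6 CPM (0.52, SE 0.06, edgeR adjusted p = 0.000113). Prkcd, a protein kinase C that phosphorylates p47phox, rose by 0.34 (SE 0.04, adjusted p = 0.000329) and Pik3cd, the leukocyte PI3-kinase catalytic subunit, by 0.34 (SE 0.05, adjusted p = 0.000400). Mapk3 (-0.27, adjusted p = 0.00193) and Arhgdia, which keeps Rac in the cytosol (-0.15, 0.0369), fell, the last a call lost without WT replicate 2 or 3 or AMPK-KO replicate 1 or 2 (0.107 to 0.156) or with no filter on low counts (0.0586). With stage 3 rose and 1 fell (median 0.10), beside 4.31% and 4.88% of all genes. Prex1 was again higher, at 419, 424 and 413 CPM in late-stage against 317, 309 and 299 CPM in early-stage TAMs (0.44, SE 0.06, adjusted p = 0.00244), as were Pik3r5 (0.42, 0.00551) and Prkcb (0.58, 0.00920, but 0.0684 without early-stage replicate 2 and 0.0556 without late-stage replicate 2), whereas the Rac exchange factor Tiam1 fell (-0.78, 0.00412).

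**Figure D4:**
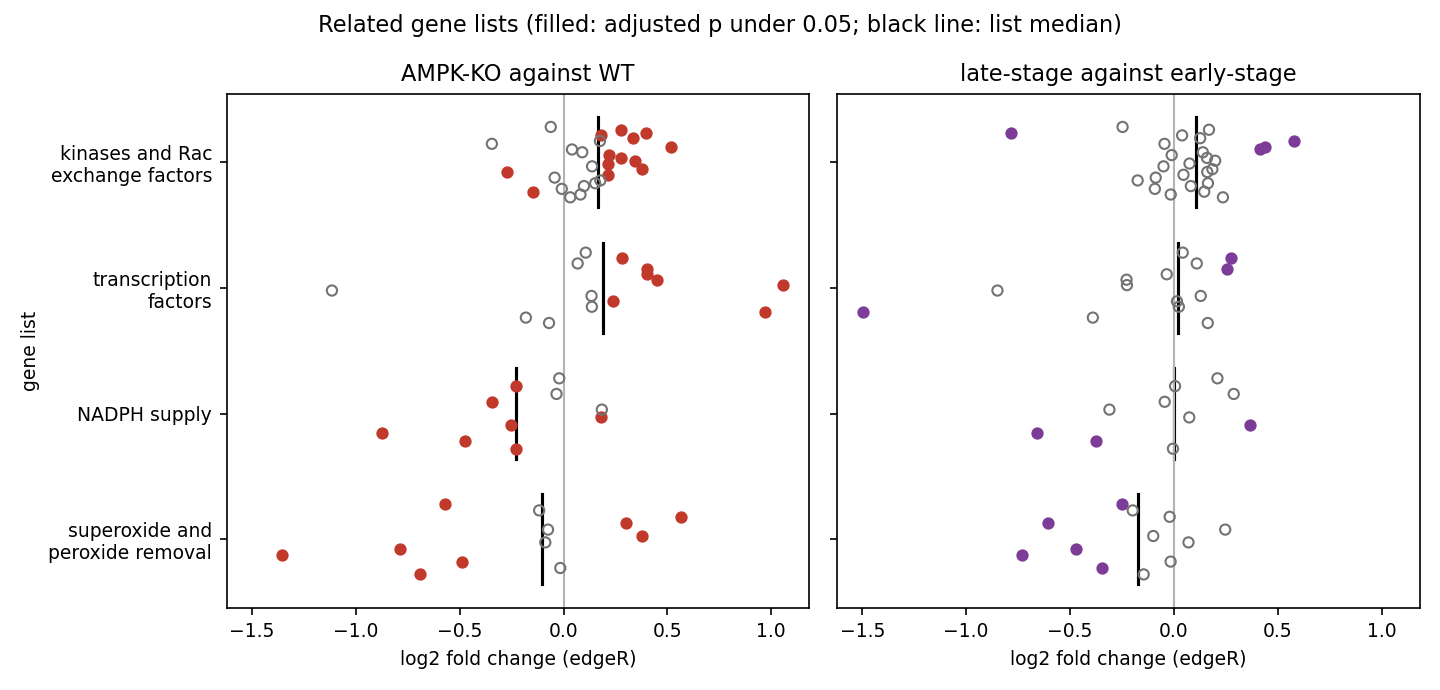
log2 fold change (horizontal axis, edgeR) of each gene tested in 4 lists related to the oxidase, for AMPK-KO against WT (left) and late-stage against early-stage TAMs (right), filled where the adjusted p was under 0.05, with the list median as a black line. In the left panel 7 of 14 transcription factors are filled above 0 and 6 of 10 genes of NADPH supply are filled below 0.

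Enzymes that supply the oxidase's substrate were also read. Of 10 genes for NADPH supply 1 rose, 6 fell and 3 did not pass in AMPK-KO TAMs (median -0.23), where 11.3% of all genes rose and 9.78% fell. Me1, malic enzyme, fell from 19.3 ± 1.60 to 10.5 ± 1.15 CPM (-0.87, SE 0.11, edgeR adjusted p = 0.000294). Idh1, isocitrate dehydrogenase, fell from 112 ± 5.18 to 80.9 ± 1.58 CPM (-0.47, SE 0.05, adjusted p = 0.000144), and Pgd, of the pentose phosphate pathway, from 348 ± 11.1 to 275 ± 10.6 CPM (-0.34, SE 0.05, adjusted p = 0.000601). Nadk, the kinase that makes NADP, rose by 0.18 (SE 0.04, adjusted p = 0.0153), a call lost without WT replicate 3 or AMPK-KO replicate 1 or 2 (0.0676 to 0.0708). With stage 1 rose and 2 fell (median 0.00), beside 4.31% and 4.88% of all genes: Mthfd1 was higher (0.37, adjusted p = 0.0180), and Idh1 (-0.38, 0.0183) and Me1 (-0.66, 0.0485) were lower. Without early-stage replicate 2 or any 1 late-stage replicate the calls of Mthfd1 (adjusted p from 0.0651 to 0.105) and Idh1 (0.0654 to 0.0883) were lost, and that of Me1 was lost without any 1 of the 6 libraries (0.0544 to 0.131) or with no filter on low counts (0.126).

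Genes listed under removal of superoxide and peroxide were split. The list and its counts include Hmox1, whose product breaks down haem and does not itself remove either. Of 12, 3 rose and 5 fell in AMPK-KO TAMs (median -0.10), beside 11.3% and 9.78% of all genes. Hmox1, haem oxygenase, fell from 3133, 3389 and 3258 CPM to 1243, 1248 and 1325 CPM (-1.36, SE 0.04, edgeR adjusted p = 4.17e-08). Prdx1, a peroxiredoxin, fell from 1064 ± 85.9 to 617 ± 25.6 CPM (-0.79, SE 0.06, adjusted p = 9.78e-06), and Cat, catalase, from 136 ± 3.16 to 84.3 ± 2.99 CPM (-0.69, SE 0.05, adjusted p = 7.76e-06). The mitochondrial enzymes Sod2 (0.30, SE 0.06, adjusted p = 0.00354) and Prdx5 (0.38, SE 0.07, adjusted p = 0.00358) rose, as did the extracellular Sod3 at under 7 CPM (0.57, SE 0.15, adjusted p = 0.0191), which lost its call without WT replicate 1 (0.0520) or AMPK-KO replicate 2 (0.0864). With stage 0 rose and 5 fell (median -0.17), beside 4.31% and 4.88% of all genes. Hmox1 (-0.73, adjusted p = 0.000639) and Prdx1 (-0.47, 0.00384) were lower in late-stage TAMs, and so was Sod2 (-0.60, 0.000852), which had risen in AMPK-KO TAMs.

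Markers of other cells that the gate could hold were read beside these results, because neutrophils and monocytes carry the oxidase too, although a gate for CD11b+ F4/80+ cells without Ly6C and Ly6G should leave out neutrophils, Ly6C+ monocytes and most lymphocytes. Elsewhere the study writes its TAM gate with Ly6C+, and in the caption of its gating strategy with Ly6G+ as well. In bulk RNA fewer cells of a type and less RNA per cell cannot be told apart. The counts of markers called with AMPK stand beside 11.3% of all genes tested that rose and 9.78% that fell. Of 12 neutrophil markers 7 were tested in the AMPK comparison, 4 rose and 0 fell, and their summed level was 112 to 119 CPM in WT and 184 to 186 CPM in AMPK-KO TAMs. Most of this sum was Csf3r, at 96.5 ± 3.18 and 154 ± 1.40 CPM. Mmp8 rose from 16.7 ± 0.903 to 24.3 ± 1.11 CPM (log2 fold change 0.54, edgeR adjusted p = 0.00115). All 7 tested lay higher in AMPK-KO TAMs without overlap, as 18.8% of all genes did, with a median log2 fold change of 1.82. The defining granule and surface markers Ly6g and Ngp had 0 counts in all 6 libraries, and S100a8 was at 1.05 ± 0.241 and 2.10 ± 0.398 CPM. Of 6 monocyte markers 3 rose and 0 fell, with sums of 515 to 545 CPM in WT and 835 to 863 CPM in AMPK-KO TAMs, led by Ccr2 at 237 ± 9.15 and 405 ± 20.4 CPM. Ly6c2, which encodes the Ly6C antigen of the gate, rose from 17.6 ± 0.163 to 40.2 ± 3.27 CPM (1.19, edgeR adjusted p = 3.44e-06). Of 9 dendritic cell markers 8 rose (105 to 113 against 170.0 to 174 CPM), and of 9 T and NK cell markers 8 rose (98.8 to 117 against 218 to 231 CPM). Of 6 B cell markers 1 rose and 5 fell, of 6 melanocyte and B16 markers 6 fell (919 to 925 against 614 to 644 CPM), and of 11 macrophage markers 2 rose and 2 fell (13945 to 15165 against 13583 to 13802 CPM). The part of these cells in the rise of Cybb, Ncf1 and Ncf4 was not tested.

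With stage the marker lists moved otherwise, where 4.31% of all genes tested rose and 4.88% fell. Of 6 monocyte markers 5 fell, with sums of 562 to 673 CPM in early-stage and 228 to 259 CPM in late-stage TAMs. The log2 fold changes of the subunits were 0.04 for Cybb, 0.04 for Cyba, -0.18 for Ncf1 and 0.03 for Ncf4. Of 6 neutrophil markers tested 2 fell (121 to 128 against 105 to 110.3 CPM). Of 6 melanocyte and B16 markers 4 fell (1546 to 1667 against 701 to 1133 CPM), of 6 B cell markers 4 rose, of 9 dendritic cell markers 2 rose and 1 fell, of 9 T and NK cell markers 2 rose and 3 fell, and of 11 macrophage markers 1 rose and 2 fell (13164 to 15745 against 14262 to 14378 CPM). Their part in the values of the subunits was not tested.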

How the data were processed

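RNA-seq was read from 12 samples of sorted TAMs. The authors mapped reads with HISAT2 and made gene counts with featureCounts, and the raw counts were deposited in 2 tables; tool versions, strand and handling of multi-mapped reads are not given in the sources used here, and the submitters' processing notes name mm10 and GRCm38. Each table was fitted separately with edgeR 4.0.16 (TMM scaling, filterByExpr, quasi-likelihood test), with Benjamini-Hochberg adjustment over all genes tested and a threshold of 0.05. CPM are TMM-scaled. Ratios used a prior of 0.5 count and a two-sided exact permutation test. DESeq2 1.42.0, other scalings, filters, a replicate block and leaving out each library were alternatives. The model was checked on simulated data. Replicates of a group differed by more than sampling noise, and all were kept as separate samples. The members and gene lists were chosen with earlier results of these data known. Named genes were the subunits, their partners, Prkaa1, up to 3 genes per direction of each related list by smallest p, leading or absent markers, and the 3 nearest profiles. Spi1, Ddx3y and Daglb were named after their values were seen. Results on some related genes are not reported here, and the lists are counted without them.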

Additional observations from a re-analysis of the deposited data

How the results depend on the processing

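The count of subunits called in AMPK-KO against WT TAMs was 3 and became 0 when a log2 fold change above 1 was also required. It was 3 with the replicate block and 4 with the length index as a covariate, an alternative chosen after seeing the data. Leaving out 1 library gave 2 to 3. In late-stage against early-stage TAMs the count was 0, with 1 (Ncf1) by the unadjusted p, 0 to 1 when 1 library was left out and 0 with the replicate block. Replicate numbers did not pair the samples: same-numbered samples had deviation correlations of -0.00 to 0.04 and 0.01 to 0.03, and the block moved the calls over all genes from 3693 to 3862 and from 1619 to 1417. Genes called in the related lists numbered 37 with AMPK (23 to 37 without 1 library, 23 being without AMPK-KO replicate 2) and 17 with stage (7 to 25 without 1 library, 27 with the length index, and 7 to 9 without early-stage replicate 2 or any 1 late-stage replicate). Of all genes tested, 21.1% were called with AMPK and 9.18% with stage. Over all genes the AMPK comparison called 2414 without WT replicate 3 and 2419 without AMPK-KO replicate 2 against 3693 in all, and the stage comparison called 936 without a filter, 3200 with the length index, and from 653 to 2835 without single libraries. The cause was not tested. Without single libraries, the Cybb to Cyba log2 ratio with stage ran from -0.294 to 0.244, Ncf1 to Cyba with AMPK from -0.0864 to 0.0874, Ncf1 to Cyba with stage from -0.392 to -0.160, Ncf4 to Cyba with AMPK from 0.0468 to 0.165 and Ncf4 to Cyba with stage from -0.131 to 0.0424. Stage changes near 0 turned sign without single libraries for Cybb (-0.0544 to 0.169), Cyba (-0.0876 to 0.242), Ncf4 (-0.0785 to 0.109) and Rac1 (-0.0360 to 0.0596), and for Rac1 with upper-quartile scaling (-0.0002). The block ended the stage calls of Runx1 (adjusted p = 0.0623) and Nfkb1 (0.0834) and no other call of a named gene. Counting error was small at these depths, and 3 samples a group limit the precision.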
